A study of Mus musculus with 24 samples.

Results

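The miR-297, miR-466, miR-467 and miR-669 families are a group of rodent microRNAs, and 61 of the 1881 mouse miRNAs on the array belong to them by name. They were chosen as the miRNAs, control sequences aside, whose names begin with 1 of these 4 family numbers. Of the 61 members, 10 were detected on all 24 arrays, 14 on some arrays and 37 (60.7%) on none, where 76.7% of other miRNAs and 76.2% of all were on none. The 14 were detected on arrays of mouse 2 and on no array of mouse 1. This pattern held for 23% of members, 2.53% of other miRNAs and 3.19% of all. No member rose or fell along the liver lobule in the fit without a mouse block. Of the 198 miRNAs detected on all arrays 9.6% rose and 9.6% fell in it. With the block 2 of the 10 members detected throughout fell, against 24.7% of the 198.

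MicroRNAs are short RNAs that bind partly complementary sites in messenger RNAs, mostly through the seed near their 5′ end, and lower the output of those messengers. These families are best known from a long run of repeated miRNA genes inside Sfmbt2, a Polycomb-related gene that is imprinted and strongly expressed from the paternal copy in mouse placenta. Their mature sequences are built largely from short alternating repeats, so members resemble each other and other repeat-bearing RNAs.

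The samples were hepatocytes of 3 male C57BL/6J mice aged 3 months, fed ad libitum and kept on a reversed light cycle, with no treatment. Perfused livers were dissociated, dead cells and cells bearing CD45 or CD31 were removed, and tetraploid hepatocytes alone were kept. From each mouse 8 populations of 50000 cells, zones 1 (most pericentral, high CD73) to 8 (most periportal, high E-cadherin), were sorted, and the RNA of each was hybridised to 1 array. Each zone therefore has 3 arrays, 1 per mouse, and in these bulk samples fewer cells of a type and less RNA per cell cannot be told apart.

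Between 248 and 368 miRNAs were detected on an array. All 5 hepatocyte markers, miR-122-5p among them, were detected on all 24 arrays, and of 17 markers of other liver cells 2 were detected on any: the endothelial miR-126a-3p on 16 arrays and the biliary miR-200b-3p on 1. The 8 arrays of a mouse lay on 1 slide, so animal and slide cannot be told apart. Slide row and column cannot be told apart from position in the lobule. Zones 1 to 4 always occupied the first row and zones 5 to 8 the other, each zone in the same column in every mouse. In a RefSeq gene table of GRCm38.p6, 72 genes of these families lay within Sfmbt2 and 10 elsewhere in the genome, with 0 other miRNA genes inside Sfmbt2.

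RefSeq mature sequences on GRCm38.p6 matched 7 of the 61 members, all of them from genes outside Sfmbt2, and 5 of the 7 were detected. They are shown because they hold the alternating repeats by which these families are known, in 2 kinds, of C with A and of G with U. Capitals mark the seed, bases 2 to 8.
miR-466q: gUGCACACacacacauacgu
miR-467f: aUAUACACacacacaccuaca
miR-466i-3p: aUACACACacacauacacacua
miR-467g: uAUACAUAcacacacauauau
miR-669n: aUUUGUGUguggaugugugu
miR-466j: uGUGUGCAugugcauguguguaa
miR-466k: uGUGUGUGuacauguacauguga
The first 3, detected on all 24 arrays, hold runs of 12, 12 and 11 bases that alternate between C and A. miR-467g, with a run of 9, was detected on 3 arrays. miR-669n holds an alternating run of G and U of 8 bases and was detected on 8 arrays, while miR-466j and miR-466k, with G and U runs of 7 and 9, were detected on none. No 2 of the 7 share a seed, and the nearest pairs, miR-466i-3p with miR-467f and miR-467f with miR-467g, differ by 5 single-base edits. miR-466q lies at chr3:28419988-28420007 on the + strand, miR-669n at chr3:115979905-115979924 (+), miR-467g at chr5:34732872-34732892 (-), miR-467f at chr11:69635419-69635439 (-) and miR-466i-3p at chr13:17747552-17747573 (+).

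Searched on the mature strand alone, the letters ACACAC occur in 4 of the 7 members, and all 4 were detected. Of 7 other miRNAs with ACACAC, 2 were detected. Among the 1608 miRNAs on the array with a sequence, 0.684% hold this motif. The letters UGUGUG occur in 3 of the 7 members, of which 1 was detected, and in 22 other miRNAs, of which 6 were detected. The share of all 1608 miRNAs that hold UGUGUG is 1.55%. Of other miRNAs without UGUGUG 22.9% were detected on at least 1 array.

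Detection differed by family and by precursor arm. All 3 miR-297 members were undetected on all arrays. In the miR-466 family 6 of 23 members were detected on all 24 arrays and 3 on some. In the miR-467 family 1 of 12 was detected on all and 6 on some, and in the miR-669 family 3 of 23 on all and 5 on some. Of 26 members named as the 3p arm 17 were detected on at least 1 array, against 2 of 25 named as the 5p arm and 5 of 10 without an arm in the name. Detected on all 24 arrays were 6 of the 26, 1 of the 25 and 3 of the 10. The rest were detected almost wholly in mouse 2, which is 1 animal on 1 slide. Shares of the arms over all miRNAs on the array are not given here. The 2 detected 5p arms were miR-466i-5p, on all 24 arrays, and miR-466m-5p, on 1. In all, 39.3% of members were detected at least once, against 23.3% of the 1820 other miRNAs, and 16.4% against 10.3% were detected on all 24 arrays. These shares are given as a description, since members with like sequences are not independent.

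Gene position and detection can be set side by side by name. Of the 50 members whose genes lie within Sfmbt2 alone, 5 were detected on all arrays: miR-466g, miR-466h-3p, miR-669c-3p, miR-669f-3p and miR-669p-3p. A further 12 of the 50 were detected on some arrays and 33 on none. Of all 1881 miRNAs 10.5% were detected on all arrays and 76.2% on none, so the share of the 50 on all arrays was near the background. Of the 8 members with genes elsewhere alone, 4 were detected on all arrays: miR-466i-3p, miR-466i-5p, miR-466q and miR-467f. A further 2 of the 8 were detected on some arrays and 2 on none. miR-466f-3p, also detected on all 24, has gene copies in both places. Members with near-identical sequences and several gene copies may share signal on a probe, and the files do not tell the copies apart.

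**Figure D1:**
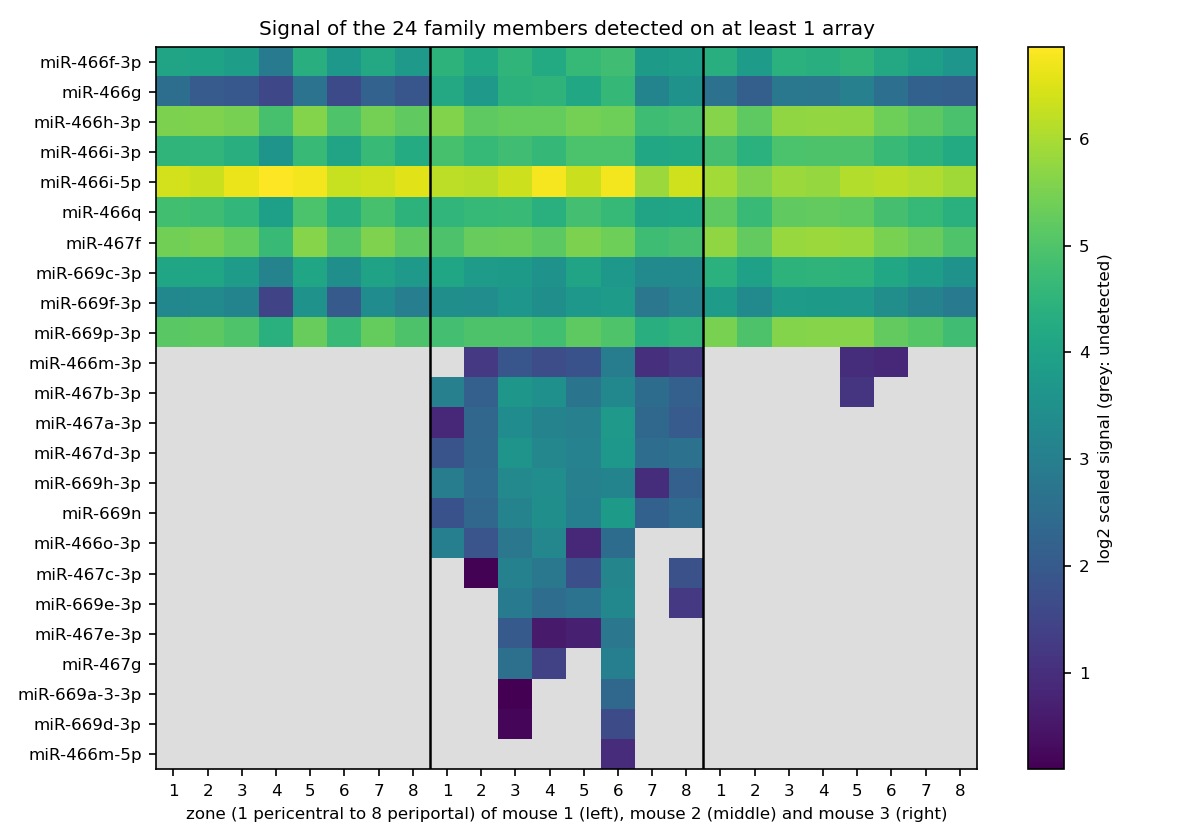
Log2 scaled signal of the 24 members detected on at least 1 array (rows) on the 24 arrays (columns, zones 1 to 8 of mouse 1, 2 and 3 from left to right); grey marks an undetected value. The upper 10 rows are filled across all arrays, and the lower 14 are empty in mouse 1, filled at 76 of 112 values in mouse 2, with 5 rows filled throughout, and filled at 3 values in mouse 3.

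The 14 members detected on some arrays were found almost wholly in mouse 2. On all 8 arrays of mouse 1 the number of members detected was 10, the members detected throughout. In mouse 2 it was 16 in zone 1, 18 in zone 2, 23 in zone 3, 21 in zone 4, 20 in zone 5, 24 in zone 6, 16 in zone 7 and 18 in zone 8. In mouse 3 it was 10 on 6 arrays, 12 in zone 5 and 11 in zone 6. Each array of mouse 2 was thus above each array of the other mice. Detection of the other miRNAs did not follow this order: the share of the 1820 miRNAs outside the families that was detected ranged from 13.1% to 15.9% in mouse 1, from 13.0% to 16.5% in mouse 2 and from 15.3% to 19.6% in mouse 3.

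In all, 14 of 61 members (23%) were detected on at least 1 array of mouse 2 and on none of mouse 1, against 46 of 1820 other miRNAs (2.53%) and 3.19% of all 1881. Without the zone 6 array of mouse 2, left out after its values were seen, 13 members had this pattern. Detection on at least 1 array of mouse 3 and none of mouse 1 was found for 2 members (3.28%), against 3.63% of other miRNAs and 3.62% of all. Of the 14, 12 were detected in mouse 2 alone, 19.7% of members against 1.54% of other miRNAs and 2.13% of all. Detection in mouse 1 alone or mouse 3 alone was found for 0 members, against 0.33% and 2.64% of other miRNAs and 0.319% and 2.55% of all. On every array of mouse 2 and none of mouse 1, 5 members (8.2%) were detected, against 5 of 1820 other miRNAs (0.275%) and 0.532% of all: miR-497b, miR-6393, miR-7680-3p and miR-873b, which were detected in mouse 2 alone like 4 of the 5 members (6.56%), and miR-877-5p, also detected on 2 arrays of mouse 3.

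**Figure D2:**
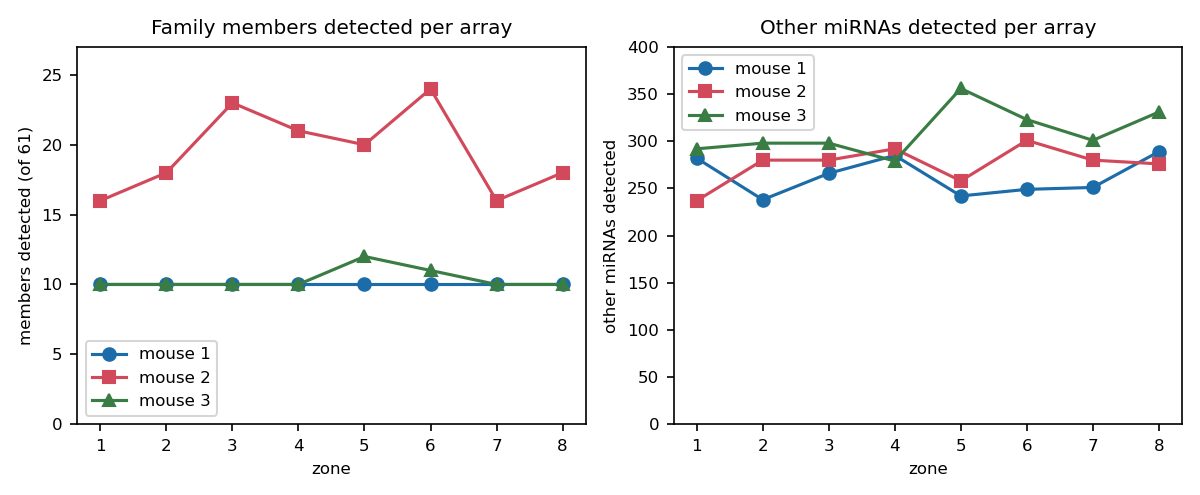
Number of family members detected per array (left, of 61) and number of other miRNAs detected per array (right) against zone, with 1 line per mouse. Mouse 2 runs between 16 and 24 members where mice 1 and 3 stay between 10 and 12, while in the right panel the lines of the 3 mice overlap in part and mouse 3 is mostly the highest.

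The levels below are scaled signals, that is, intensity set relative to the 75th percentile, on the same array, of the 198 miRNAs detected throughout, times the mean of these percentiles. Probes differ in signal per molecule, so levels of different miRNAs are not compared with each other. miR-467d-3p was detected on the 8 arrays of mouse 2 alone, with scaled signals of 3.61, 5.24, 12.0, 9.39, 8.54, 13.1, 5.68 and 6.11 in zones 1 to 8. miR-467a-3p, from the same family, had 1.79, 5.02, 10.4, 8.68, 8.23, 13.5, 5.14 and 4.12 on the same arrays. miR-669n, whose gene lies outside Sfmbt2, had 3.48, 5.05, 8.77, 10.9, 8.03, 13.9, 4.55 and 5.53. All 3 were higher in zones 3 to 6 of mouse 2 than in zones 1, 2, 7 and 8, with the highest value in zone 6. miR-669h-3p had 7.62, 5.53, 9.74, 10.6, 8.18, 8.88, 1.97 and 4.48, and was highest in zone 4 and lowest in zone 7. miR-467b-3p had 8.27, 4.54, 12.8, 11.3, 6.49, 9.60, 5.58 and 4.502 in mouse 2, and was also detected in zone 5 of mouse 3, at 2.19.

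These 5 members had to differ between mice to be detected as they were, so the sizes that follow are a description with no test. Taking for mouse 1 the dimmest detected miRNA of each array, averaged over its arrays, as the upper bound, the mean of mouse 2 was at least 5.51-fold higher for miR-467d-3p, with a log2 signal of 2.87 ± 0.64 (SD, 8 arrays). On that measure it was at least 5.53-fold higher for miR-467b-3p, 5.14-fold for miR-669n, 4.81-fold for miR-669h-3p and 4.58-fold for miR-467a-3p. A miRNA may have its own detection limit, and these folds use that of the array.

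The other 9 were detected on fewer arrays. miR-466m-3p was detected on 7 arrays of mouse 2 and 2 of mouse 3, with scaled signals from 1.83 to 7.83. miR-466o-3p was detected on 6 arrays of mouse 2, at 1.84 to 9.37, and miR-467c-3p on 6, at 1.11 to 8.95. miR-669e-3p was detected on 5 arrays, miR-467e-3p on 4, miR-467g on 3, miR-669a-3-3p and miR-669d-3p on 2 each and miR-466m-5p on 1, all in mouse 2. 8 of these 9 were highest in zone 6 of mouse 2, and miR-466o-3p in zone 4. Over all 14 the summed scaled signal on the mouse 2 arrays was 32.8, 32.5, 92.4, 80.5, 56.2, 116, 24.9 and 32.8 in zones 1 to 8. Zone 7, with the lowest of these sums, had the highest summed signal of all miRNAs among the mouse 2 arrays, 106374 intensity units, and zone 4, with the third highest, had the lowest, 66473.

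miR-466g, detected on all 24 arrays, also set mouse 2 apart. Its scaled signal ranged from 2.93 to 6.32 in mouse 1, with a median of 3.96, and from 4.396 to 8.29 in mouse 3, with a median of 6.03. In mouse 2 it was 18.2, 13.4, 21.6, 22.4, 17.7, 24.3, 8.81 and 11.6 in zones 1 to 8, so that every array of mouse 2 lay above every array of the other mice. The mean log2 signal was 2.06 ± 0.40 in mouse 1, 4.04 ± 0.51 in mouse 2 and 2.54 ± 0.34 in mouse 3 (SD, 8 arrays each). The log2 difference of mouse 2 from mouse 1 was 1.98 ± 0.19 (SE), or 1.69 to 2.06 under 3 other scalings, and limma's adjusted p was 1.52e-07. Mouse 3 was lower than mouse 2 by a log2 difference of -1.50 ± 0.19 (limma adjusted p = 5.08e-06).

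Of the 17 markers of other cell types 15 were undetected on all arrays, the other endothelial arm miR-126a-5p among them. The summed scaled signal of the 17 was 4.08 to 11.4 in mouse 1, 0 to 2.77 in mouse 2 and 0 to 3.35 in mouse 3. In mice 1 and 2 miR-126a-3p was the only marker of these detected, so the sums there are its signal alone. miR-126a-3p, on 8, 5 and 3 arrays of mice 1, 2 and 3, was lower in mouse 2 than in mouse 1 by a log2 difference of -2.06 ± 0.24 (limma adjusted p = 1.98e-06, undetected values at the floor). Its part in the differences of the members between mice was not tested.

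Each mouse is 1 animal on 1 slide, so this test compares sets of 8 arrays and not conditions. Of 198 miRNAs detected on all arrays 52% differed between mice in limma's F test with zone as a factor, and 5 of the 10 members were among them: miR-466g (adjusted p = 3.12e-07), miR-466i-5p (0.000834), miR-669c-3p (0.0172), miR-669p-3p (0.0250) and miR-466q (0.0341). The members' share was thus near the background. Unscaled, 9 of the 10 were called against 78.8% of the 198, and with scaling to the summed signal 2 were called against 77.8%. For the difference of mouse 2 from mouse 1, where 21.7% of the 198 were higher and 17.2% lower, 2 members were higher, miR-466g and miR-466f-3p, and 0 lower. miR-466f-3p was at 13.8 to 27.5 in mouse 2 and 7.51 to 20.5 in mouse 1, a difference of 0.45 ± 0.16 (limma adjusted p = 0.0368). With scaling to the summed signal it was 0.16 ± 0.18 (limma adjusted p = 0.458). Unscaled it was 0.54 ± 0.17 (limma adjusted p = 0.0174) and with quantile normalization 0.49 ± 0.15 (limma adjusted p = 0.0134).

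Mouse 3 differed from mouse 2 in the other direction for a set of members. miR-669p-3p was at 27.6 to 49.1 in mouse 3 and 20.7 to 36.1 in mouse 2, a log2 difference of 0.48 ± 0.14 (limma adjusted p = 0.0134). miR-669c-3p (0.47 ± 0.14), miR-466q (0.44 ± 0.14) and miR-467f (0.38 ± 0.15) were also higher in mouse 3, and their ranges overlapped between the mice. With scaling to the summed signal the differences of these 4 were 0.23 to 0.33 and none passed, and 19.2% of the 198 miRNAs were higher in this comparison as scaled here. Unscaled the 4 were at 0.66 to 0.76 and all passed, where the median difference of the 198 was 0.41. With quantile normalization they were at 0.26 to 0.50 and all but miR-467f passed. miR-466i-5p was lower in mouse 3 than in mouse 1, by a log2 difference of -0.61 ± 0.11 (limma adjusted p = 0.00101), with 14.1% of the 198 lower. Unscaled the difference of miR-466i-5p was -0.24 ± 0.16 (limma adjusted p = 0.233). With the summed signal it was -1.04 ± 0.15 (limma adjusted p = 7.72e-05) and with quantile normalization -0.67 ± 0.12 (limma adjusted p = 0.00116). Scaling moves these comparisons for all miRNAs: the median difference of the 198 between mouse 3 and mouse 1 was 0.05 as scaled here, 0.42 unscaled and -0.39 with the summed signal.

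The slope on the zone number asked whether members change steadily between the pericentral and periportal ends. Of the 10 members detected on all arrays, 0 rose and 0 fell in limma, against 9.6% rising and 9.6% falling among the 198 miRNAs detected on all arrays. At an unadjusted p under 0.05, 2 of the 10 fell and 0 rose, against 19.7% and 16.2% of the 198. A further 8 members entered the test, so that 18 of the 61 members (29.5%) were tested. Of all 339 tested miRNAs 10.3% rose and 6.49% fell. These 8 were at the floor in mouse 1 and on nearly all arrays of mouse 3, so that none of them passing is not read as a result. Of the 10, 9 had negative slopes and 1, miR-466i-5p, a positive one, with the same split under the 4 scalings. The share of negative slopes among the 188 other miRNAs detected on all arrays was 63.8%, and 41.0% unscaled, 50.0% with the summed signal and 60.6% with quantile normalization. Over the whole axis the median fitted change of the 10 was -0.37 on the log2 scale, against -0.19 for the 198. It was -0.14 against 0.04 unscaled, -0.20 against -0.02 with the summed signal and -0.24 against -0.13 with quantile normalization, so the size depends on the scaling. The 9 move together between arrays, so they are not 9 separate observations.

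**Figure D3:**
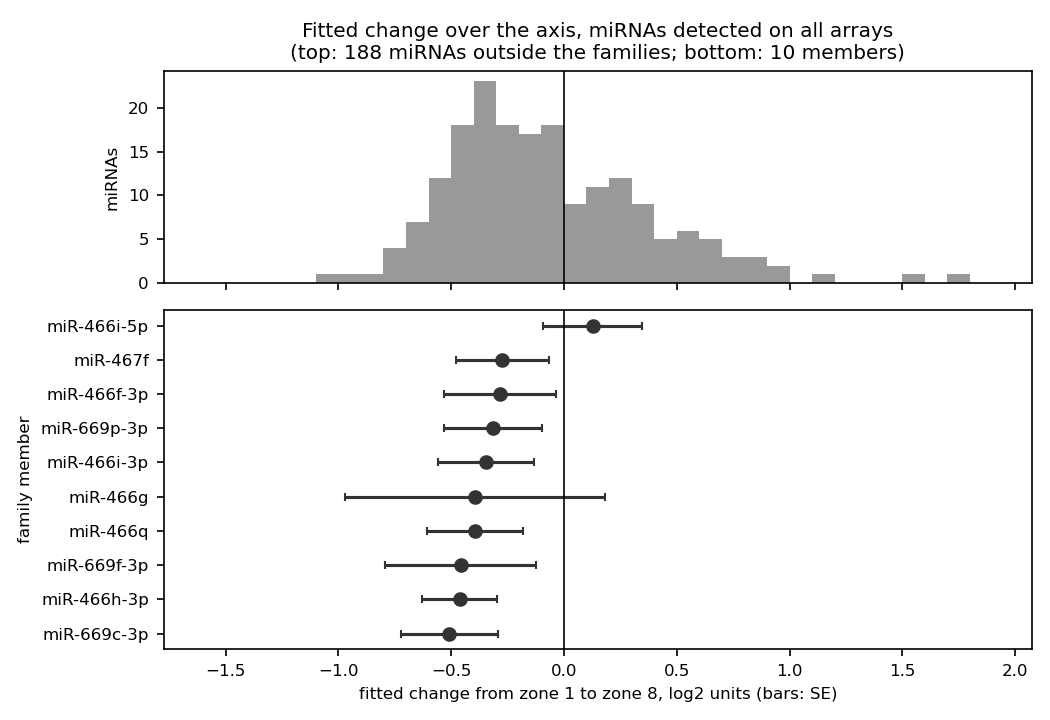
Fitted change from zone 1 to zone 8 in log2 units (limma, no block) for the 188 miRNAs outside the families detected on all arrays (histogram) and for the 10 members (points, with bars of 1 SE). The members lie between -0.51 (miR-669c-3p) and 0.13 (miR-466i-5p), inside the range of the other miRNAs.

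miR-466h-3p came nearest to a call. Its scaled signals in zones 1 to 8 were 45.6, 46.9, 44.5, 29.9, 48.4, 31.9, 43.9 and 37.1 in mouse 1. In mouse 2 they were 47.6, 36.2, 38.7, 38.5, 43.4, 41.1, 27.3 and 28.4, and in mouse 3 49.9, 36.5, 53.6, 53.8, 52.9, 41.3, 35.4 and 30.0. Zones 7 and 8 were the lowest in mice 2 and 3, and zones 4 and 6 in mouse 1. The fitted change was -0.46 ± 0.17 (SE, limma adjusted p = 0.0567). Once mouse was entered as a block it fell, with an SE of 0.16 and adjusted p = 0.0302, and so did miR-669c-3p, by 0.51 ± 0.18 (adjusted p = 0.0331). These are 2 of the 10 members detected on all arrays, against 24.7% of the 198 miRNAs that fell and 14.6% that rose with the block, so the members' share was near the background. The sizes depend on the scaling: unscaled the fitted change was -0.23 for miR-466h-3p and -0.28 for miR-669c-3p, and with the summed signal it was -0.29 and -0.34. With quantile normalization miR-466h-3p, at -0.46, fell as well, among 8.26% of all tested (limma). With slide row as a further term the fitted changes were larger, -0.89 for miR-466h-3p and -1.18 for miR-669c-3p, and 0 of all 339 miRNAs were called, so the count says nothing of the members. Within single mice 0 members were called in limma, against 8 rising and 16 falling of all 339 in mouse 1, 17 and 15 in mouse 2 and 23 and 3 in mouse 3. The slopes of miR-466h-3p there were -0.0396, -0.0812 and -0.0775 log2 units per zone. Over 17 alternatives the adjusted p of miR-466h-3p ran from 0.0231 to 0.723.

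The brightest member by median signal, miR-466i-5p, had no slope that passed. Its scaled signals in zones 1 to 8 were 84.2, 79.3, 100.4, 116, 107, 78.5, 83.1 and 93.8 in mouse 1. In mouse 2 they were 73.1, 70.6, 80.8, 108, 79.9, 107, 57.1 and 83.2, and in mouse 3 60.1, 46.9, 57.2, 55.3, 68.2, 72.0, 66.5 and 60.03. All mouse 1 values lay above all mouse 3 values, and the highest value came in zone 4 of mice 1 and 2 and in zone 6 of mouse 3. The fitted change was 0.13 ± 0.22 (limma adjusted p = 0.752).

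miR-467f, the third brightest, was at 43.1, 44.6, 38.5, 25.1, 49.8, 32.9, 46.9 and 36.9 in mouse 1. It was at 31.4, 39.0, 40.6, 35.9, 46.0, 41.5, 26.8 and 28.9 in mouse 2 and at 53.6, 37.6, 56.5, 57.4, 56.8, 45.5, 39.3 and 31.9 in mouse 3. Its dips in zones 4 and 6 of mouse 1 and in zone 2 of mouse 3 fall on the same arrays as those of miR-466h-3p. The fitted change was -0.27 ± 0.21 (limma adjusted p = 0.399). Among the other 6 negative members the fitted change was -0.46 ± 0.34 for miR-669f-3p, -0.39 ± 0.21 for miR-466q and -0.39 ± 0.58 for miR-466g. It was -0.35 ± 0.21 for miR-466i-3p, -0.32 ± 0.22 for miR-669p-3p and -0.28 ± 0.25 for miR-466f-3p. None of the 6 passed (limma adjusted p from 0.229 to 0.709). These SEs are without the mouse block and include differences between mice. With the block the SE of miR-466g was 0.25 (limma adjusted p = 0.249). Over the 24 arrays the scaled signal of miR-669f-3p ran from 2.82 to 14.3, that of miR-466q from 15.0 to 37.4, that of miR-466i-3p from 12.2 to 31.4 and that of miR-669c-3p from 8.77 to 22.6, and for each the lowest was zone 4 of mouse 1.

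**Figure D4:**
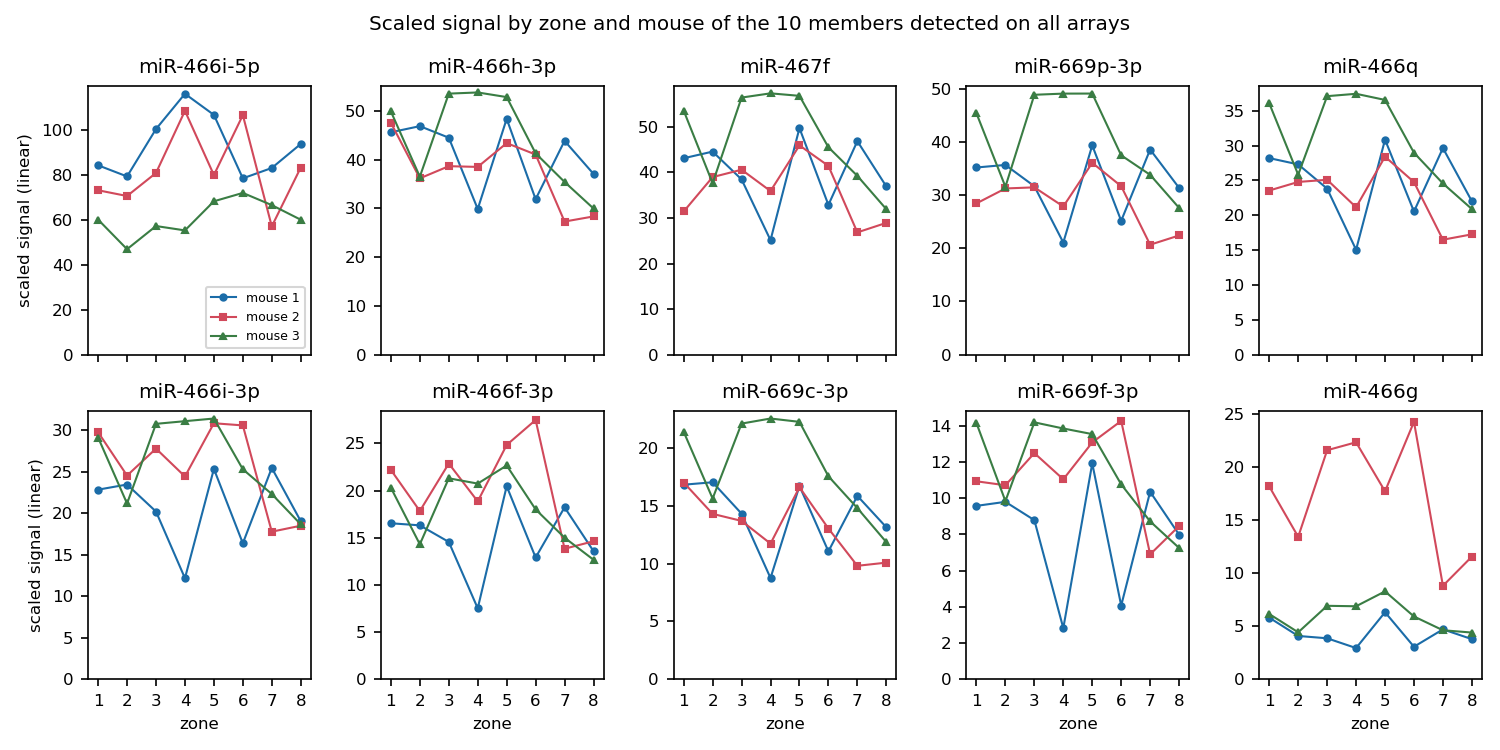
Scaled signal (linear axis from 0) against zone for the 10 members detected on all arrays, with 1 line per mouse. Most panels repeat the same dips, at zones 4 and 6 of mouse 1 and zone 2 of mouse 3; miR-466i-5p has another profile, and in the panel of miR-466g mouse 2 lies above the other mice.

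The moderated F test over the 8 zones and the comparison of zone 8 with zone 1 called no member either. Of the 10 members detected on all arrays the F test called 0 in limma, with 0 at an unadjusted p under 0.05, against 4.04% and 12.6% of the 198 miRNAs. In zone 8 against zone 1, 0 of the 10 were higher and 0 lower in limma, against 3.54% and 1.01% of the 198. At an unadjusted p under 0.05, 2 of the 10 were lower, against 7.07% of the 198. These were miR-669c-3p, with a log2 difference of -0.65 ± 0.29 (SE, limma adjusted p = 0.261), and miR-466h-3p, with -0.59 ± 0.22 (adjusted p = 0.142). Once mouse was a block, 0 of the 10 were called in limma's F test, with 0 at an unadjusted p under 0.05, against 10.1% and 23.7% of the 198. In zone 8 against zone 1 with the block 0 of the 10 were called in limma, against 6.06% higher and 3.03% lower. At an unadjusted p under 0.05, 4 were then lower, miR-466h-3p, miR-466i-3p, miR-466q and miR-669c-3p, against 20.2% of the 198.

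Of the 10 members detected throughout, 9 moved together between arrays and miR-466i-5p did not follow them. The split was made from the correlations below, so they describe it and do not test it. Pearson correlations of log2 signals were computed after removing each mouse's mean, and carry no p-value, since the 24 points share animals, slides and the array scaling. Among the 9 members other than miR-466i-5p the 36 correlations ran from 0.72 to 0.98 with a median of 0.92. Without the zone 4 array of mouse 1 and the zone 6 array of mouse 2, left out after the values were seen, they ran from 0.74 to 0.98. Over all pairs of the 198 miRNAs the median was 0.06, with a range from -0.92 to 0.98. The correlations of miR-466i-5p with the same 9 ran from -0.09 to 0.46. Before removing mouse means the 36 correlations ran from -0.02 to 0.99 with a median of 0.77.

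The miRNAs outside the families that were most like miR-466i-5p over the 24 arrays were miR-574-5p (r = 0.96), miR-1187 (0.95) and miR-1904 (0.75). With mouse means removed these were 0.96, 0.97 and 0.50. Both miR-574-5p and miR-1187 are built on alternating G and U, and they are shown with miR-574-3p, the other arm of the miR-574 precursor, which holds ACACAC.
miR-574-5p: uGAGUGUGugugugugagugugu
miR-1187: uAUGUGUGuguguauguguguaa
miR-574-3p: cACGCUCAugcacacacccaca
The alternating G and U runs of miR-574-5p and miR-1187 are 13 and 11 bases long, and the alternating C and A run of miR-574-3p is 7. miR-574-5p lies at chr5:64970328-64970350 (+), miR-574-3p at chr5:64970364-64970385 (+) and miR-1187 at chr5:82798964-82798986 (-). With mouse means removed the 2 arms of miR-574 went with different members. miR-574-5p correlated at 0.96 with miR-466i-5p and at 0.18 with miR-466q. miR-574-3p correlated at 0.25 with miR-466i-5p, at 0.79 with miR-466q and at 0.92 with miR-669f-3p. Without the 2 arrays named above the values were 0.95 for miR-574-5p with miR-466i-5p and 0.73 for miR-574-3p with miR-466q. Before removing mouse means, the miRNAs outside the families most like miR-466q were miR-6997-5p (r = 0.61), miR-19a-3p (0.56) and miR-320-3p (0.54), not miR-574-3p. With mouse means removed these were at 0.47, 0.44 and 0.49. miR-574-3p was also higher in mouse 2, at 9.16 to 20.6 against 2.22 to 10.5 in mouse 1, a log2 difference of 1.32 ± 0.27 (limma adjusted p = 0.000586). miR-574-5p was at 19.7 to 41.3 in mouse 2 and 24.3 to 37.1 in mouse 1, a difference of -0.03 ± 0.12 (adjusted p = 0.835).

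**Figure D5:**
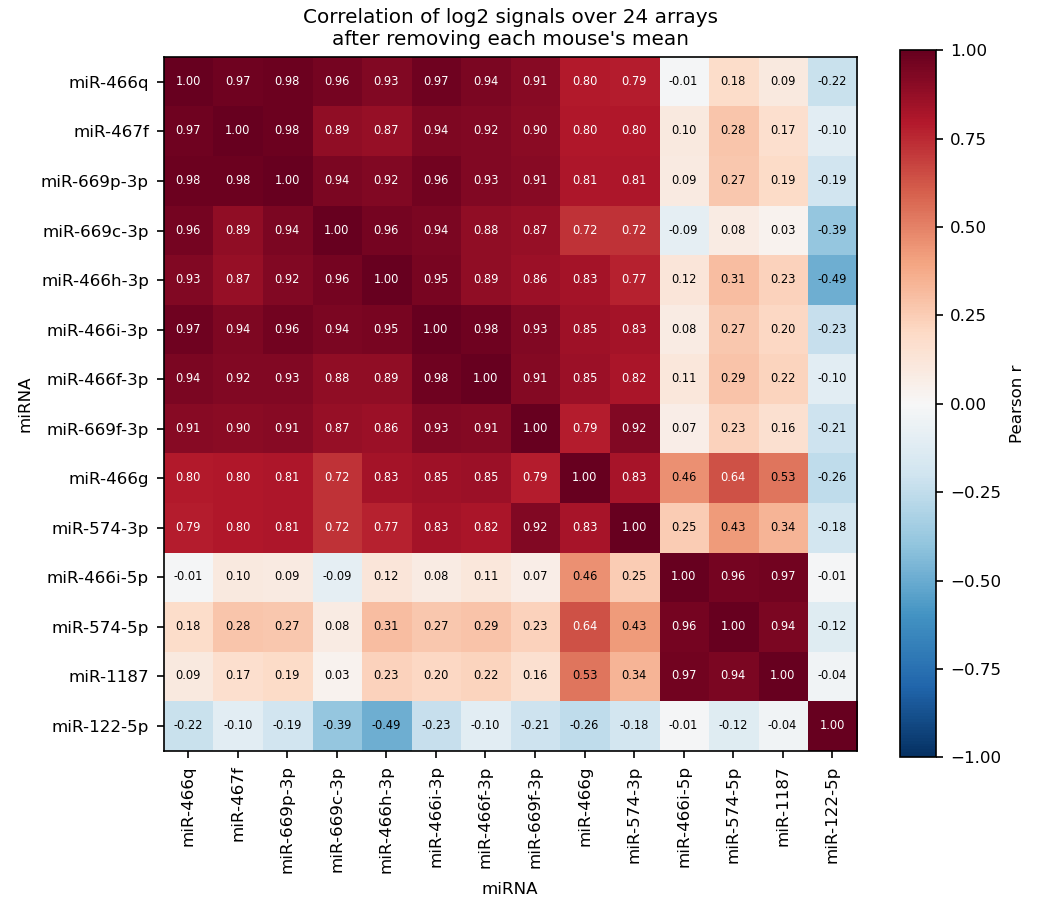
Pearson correlation of log2 scaled signals over 24 arrays, after removing each mouse's mean, for the 10 members, 3 other miRNAs with alternating repeats and miR-122-5p. The upper left block of 9 members and miR-574-3p runs from 0.72 to 0.98, miR-466i-5p forms a second block of 0.94 to 0.97 with miR-574-5p and miR-1187, and miR-122-5p lies between -0.49 and -0.01 with all of them.

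The member with the largest slope among those tested was miR-466o-3p, with a fitted change of -0.88 ± 0.62 (limma adjusted p = 0.374), which rests on 6 arrays of mouse 2. The miRNAs most like it over 24 arrays were miR-873b (r = 0.94), miR-7680-3p (0.91) and miR-497b (0.88), all detected on the 8 arrays of mouse 2 alone. All 4 were undetected on the 16 arrays of mice 1 and 3, so these correlations largely restate that shared detection. With mouse means removed, which leaves the 8 arrays of mouse 2 alone, they were 0.965, 0.965 and 0.929. Undetected values of miR-466o-3p stood at the floor there. Within mouse 2 the signal of miR-466o-3p was 8.02, 3.70, 6.87, 9.37, 1.84 and 5.65 in zones 1 to 6, and it was undetected in zones 7 and 8. Its values in mouse 2 thus ran from high to undetected without a steady order.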

How the data were processed

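The labels' protocols describe Cy3 labelling of total RNA from 24 sorted hepatocyte populations (8 zones of 3 mice), measured on 1-colour mouse miRNA arrays. The deposited intensity values give the total signal of each miRNA, linear in scale; the submitters' processing notes name Feature Extraction, whose version is not given in the sources used here. A deposited detection call was also read, and undetected miRNAs stood at 0.1. No genome build is named.

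For the 1881 miRNAs, leaving 21 control sequences aside, each signal was scaled by its array's 75th percentile among the 198 miRNAs detected throughout (mean percentile 71.8). Values under 1.12, the median of the arrays' dimmest detected signals, were set to it before log2 was taken. The 339 miRNAs detected on at least 6 arrays entered limma 3.58.1 (R 4.3.3; lmFit, eBayes, Benjamini-Hochberg, threshold 0.05, two-sided) for the zone slope, the F over zones, zone 8 against zone 1 and the F over mice with zone as a factor. Fitted changes are slopes multiplied out from zone 1 to zone 8. Pairing by mouse enters an SE or p-value only where the block is named. Arrays with 1 mouse number are paired, being 8 populations of the same animal: deviations from zone means correlated at a median of 0.610 within a mouse (lowest 0.254). P-values between mice measure spread between arrays of 1 animal and slide.

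Members detected on at least 6 arrays were named with values, those on 1 to 5 with their number of arrays and the rest counted by family; the 3 brightest were given on every array, and for the brightest and the steepest the 3 most correlated other miRNAs. The members and lists were chosen with earlier results of these data known. miR-574-3p, the ACACAC motif, the pattern of detection in mouse 2 and the arrays left out singly were chosen after the values were seen. So were the setting apart of miR-466i-5p and the search for the miRNAs most like miR-466q. Alternatives were 3 other scalings, 2 detection filters, a lower floor, eBayes with trend and robust, the mouse block, slide row, each mouse alone and leaving out each mouse. The fits were tested on simulated data. The number of arrays limits the precision. Python 3.11.15 and matplotlib 3.10.9 made the figures.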

Additional observations from a re-analysis of the deposited data

Results flagged for a closer look

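Among the 21 control sequences, which entered no comparison, detection varied between arrays for 5. The controls dmr_3 and dmr_6, and likewise dmr_31a and dmr_285, had 16 arrays with a detected signal, all 8 of mouse 1 and all 8 of mouse 2. For miRNABrightCorner30 the number was 22. The dmr controls named here were thus detected on 0 arrays of mouse 3, and their bearing on the differences between mice was not tested.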

How the results depend on the processing

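The counts of members called in the F test over zones and in zone 8 against zone 1 were 0 under every alternative run, and so was the count of rising members; with slide row no miRNA at all was called. The count of falling members in the slope was 2 with mouse as a replicate block (miR-466h-3p and miR-669c-3p), where 56 of all 339 tested miRNAs fell. It was 1, miR-466h-3p each time, with quantile normalization (28 of 339 fell) and with miRNAs detected on all 24 arrays (29 of 198). The same held with eBayes with trend and robust (27 of 339) and without the zone 4 array of mouse 1 (23 of 335). It was 0 without replicate 1, 2 or 3, where 6 of 329, 12 of 312 and 13 of 311 fell. The block changed no other call. The number of members detected on all 24 arrays that differed between mice was 5, against 52% of the 198 miRNAs detected throughout. Unscaled it was 9, against 78.8%, and with scaling to the summed signal 2 (miR-466g and miR-466i-5p), against 77.8%. Without mouse 1 it was 5, where 109 of all 329 tested miRNAs were called. It was 1 without mouse 2 (93 of 312 called) and 1 without mouse 3 (126 of 311). The cause was not tested. The backgrounds without 1 mouse cover all tested miRNAs, also those detected on some arrays. They are thus not matched to members detected on all 24 arrays. Signals near the floor limit the 14 members detected on some arrays: their median errors in the files were 11.4% to 32.5% of the signal.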

Other observations

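Of the 22 miRNAs outside the families that hold UGUGUG, 6 were detected, and 2 of these went with mouse 2. They were picked out after the mouse 2 pattern was seen. miR-3082-5p was at 10.2 to 27.4 in mouse 2, 6.603 to 13.8 in mouse 1 and 5.07 to 8.05 in mouse 3, a log2 difference of mouse 2 from mouse 1 of 0.88 ± 0.16 (SE, limma adjusted p = 0.000233). Of the 198 miRNAs detected on all arrays 21.7% were higher in mouse 2 than in mouse 1. miR-32-3p was detected on 3 arrays, all of mouse 2. Detection in mouse 2 and not in mouse 1 was found for 1 of the 22, against 36 of 1579 other miRNAs without UGUGUG. The other detected miRNAs with UGUGUG did not stand out in mouse 2. let-7b-5p differed by 0.01 ± 0.11, miR-574-5p by -0.03 ± 0.12 and miR-1187 by 0.04 ± 0.12 between mouse 2 and mouse 1. miR-7226-5p was detected on 6 arrays of mouse 1, 6 of mouse 2 and 7 of mouse 3.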
